A study of Mus musculus with 8 samples.

Results

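The genes described here are 36 genes of megakaryocytes and platelets, chosen by name from what they encode: surface receptors, granule proteins, cytoskeletal and signalling proteins, enzymes and transcription factors. All 36 were found among the 52636 genes of a count table made from mouse spleen by RNA sequencing, and all 36 passed the filter on low counts that left 17327 genes for testing. The table held 8 libraries in 4 groups of 2. Irradiated mutants carried the Lmna R527C substitution and were sampled 7 days after 4 Gy. Irradiated wild types had the same dose and day. Unirradiated mutants and unirradiated wild types were sampled at day 0. All mice were C57BL/6 and aged 6 weeks by the labels. Lmna encodes A-type lamins, filament proteins that line the nucleus. The study set out to compare mutant with wild type mice, with and without irradiation, in connection with senescence. The labels used here do not say whether mutants carried 1 or both mutant copies, how the allele was made, the sex of the mice, or whether the 2 libraries of a group came from separate mice. P-values therefore measure only the spread between these libraries, which may be technical. A substitution does not show in gene counts, so the genotype labels were not checked.

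Megakaryocytes are large polyploid cells that arise from stem and progenitor cells and shed platelets into the blood. In mice the spleen makes megakaryocytes alongside the bone marrow, and it also stores platelets, which carry megakaryocyte RNA. Platelets bind von Willebrand factor and collagen at a wound through surface receptors, then release granules and bind fibrinogen through an integrin. Transcription factors of the GATA, ETS and NF-E2 families are known to drive the genes of this lineage, and erythroid cells use several of the same factors.

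Libraries held 12100784 to 19455470 counts. Levels are given as CPM, the counts of a gene relative to its library size after TMM scaling. A count of 0 allows up to 3 counts, which was 0.131 to 0.350 CPM in a library, for counting error only. The replicates of irradiated mutants were the least alike, with a correlation of log2 CPM across genes of 0.877, against 0.942 in irradiated wild types, 0.988 in unirradiated mutants and 0.982 in unirradiated wild types. Irradiated and unirradiated libraries also differed in sex-linked transcripts. Xist, which is made from the inactive X chromosome, was at 1029 to 1776 CPM in the 4 irradiated libraries and at most 0.262 CPM in the 4 unirradiated ones. The Y-linked gene Ddx3y was at 0 CPM in every irradiated library and at 90.9 to 113 CPM in the unirradiated ones. Irradiation, the day of sampling and this difference in sex-linked transcripts cannot be told apart in any comparison of irradiated with unirradiated libraries below. None of the 36 genes lies on chromosome X or Y, but whether their levels differ by sex was not tested. Summed hepatocyte markers were at 89.6 to 484 CPM in irradiated libraries and 7.63 to 9.59 CPM in unirradiated ones, and Alb, which encodes albumin, was at 0 in all unirradiated libraries. The part of the hepatocyte signal in the results was not tested.

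At 7 days after 4 Gy, most of the platelet receptor, granule and cytoskeletal genes were lower than in unirradiated spleen in both genotypes, while the transcription factor genes Nfe2 and Gfi1b had log2 fold changes above 0 that did not pass the test. In all 4 irradiated libraries, 24 of the 36 genes (66.7%) were below all 4 unirradiated libraries, where 14.2% of all genes tested were. None of the 36 was above all 4 unirradiated libraries, where 12.8% of all genes were. The 12 that overlapped were Clec1b, P2ry12, Cd9, Angpt1, Slc35d3, Gng11, Nrgn, Tbxas1, Ptgs1, Gfi1b, Nfe2 and Fli1. The log2 fold change was below -1 in both genotypes for 24 of the 36 (66.7%), against 7.5% of all genes. The median log2 fold change of the 36 genes, irradiated over unirradiated, was -1.85 in mutants and -1.83 in wild types, beside medians over all genes of 0.15 and 0.09.

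By edgeR's quasi-likelihood test with Benjamini-Hochberg adjustment over all 17327 genes, 8 of the 36 fell after irradiation in mutants, where 0.346% of all genes were called lower. None of the 36 was called higher there, where 0.254% of all genes were. The 8 were Gp1ba, Gp6, Treml1, F2rl2, Ppbp, Rab27b, Tubb1 and Alox12. In wild types 1 of the 36 fell, Rab27b, where 0.0462% of all genes were called lower, and none was called higher, where 0.0115% were. Without adjustment, 22 of the 36 were lower and 1 higher in mutants at p under 0.05 (all genes: 8.7% lower and 13.4% higher). In wild types 23 were lower and 0 higher (all genes: 8.57% and 8.69%). The libraries did not overlap for 27 genes that were lower and 2 that were higher in irradiated mutants (all genes: 25.7% and 26.9%). In irradiated wild types they did not overlap for 29 that were lower and 2 that were higher (all genes: 27.8% and 29.7%). The number of calls rested on single libraries: leaving out 1 library at a time gave 0 to 26 calls in mutants and 0 to 25 in wild types. In mutants there were 0 calls without any 1 of the 4 unirradiated libraries (all genes: at most 0.0655%) and 3 without either irradiated wild type library (all genes: 0.292% and 0.288%). There were 19 without replicate 1 of irradiated mutants, where 6.89% of all genes were called, and 26 without their replicate 2, where 24.6% were. In wild types there were 25 calls without replicate 1 or replicate 2 of irradiated mutants, where 13% and 14.2% of all genes were called, and 0 without any 1 of the others (all genes: at most 0.0327%). In bulk tissue, fewer cells of a type and less RNA per cell cannot be told apart.

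**Figure D1:**
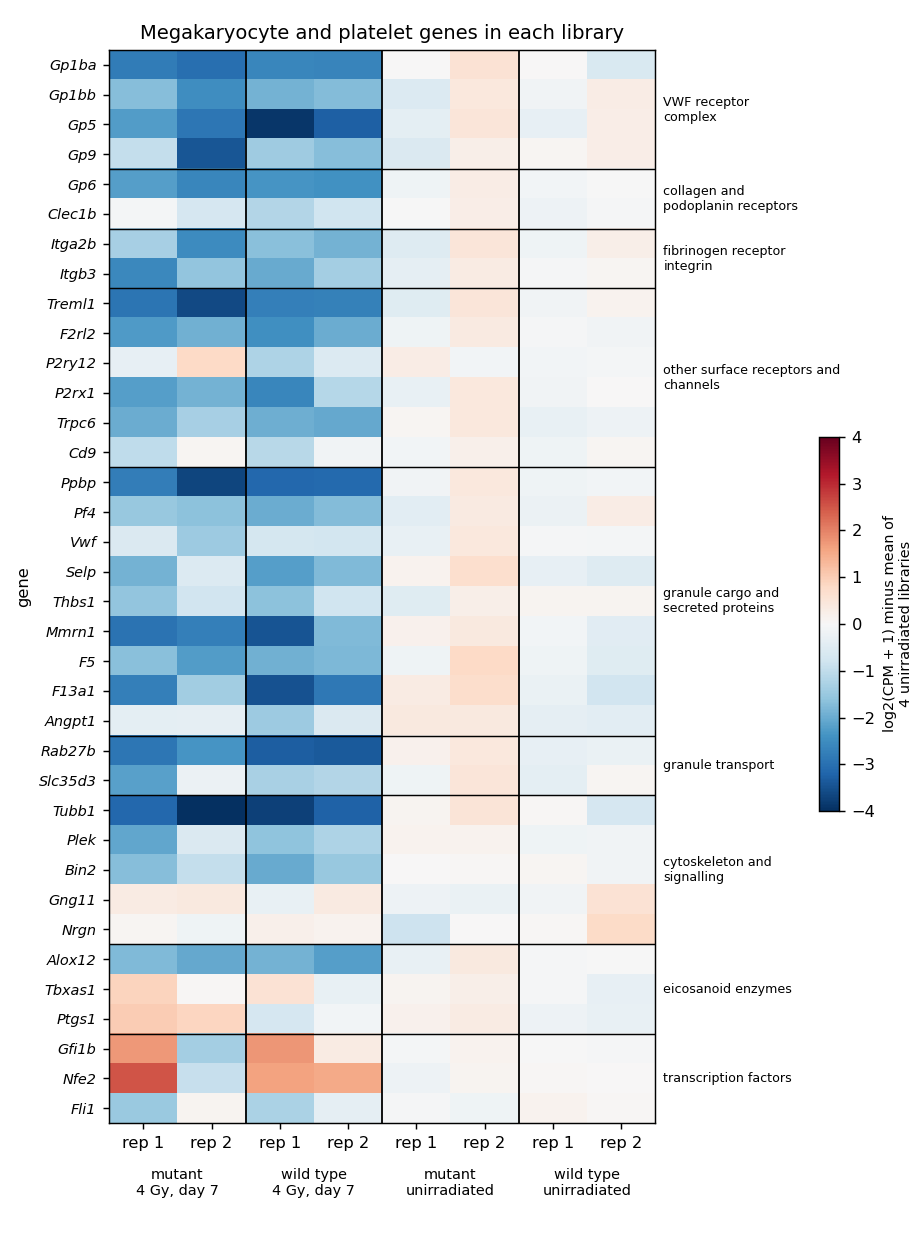
Log2(CPM + 1) of each of the 36 genes in each of the 8 libraries (columns, grouped as irradiated mutant, irradiated wild type, unirradiated mutant, unirradiated wild type), less the mean of the 4 unirradiated libraries, with genes ordered by role. Blue fields in the 4 irradiated columns mark lower levels, and 24 genes were below every unirradiated library there, while Nfe2 was above them in 3 of the 4.

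The receptor for von Willebrand factor is a complex of the products of Gp1ba, Gp1bb, Gp9 and Gp5, which tethers platelets to a damaged vessel wall. Because these genes, the integrin gene Itga2b and the chemokine gene Pf4 are textbook targets of GATA and ETS factors in megakaryocytes, their promoter windows are shown with the motif letters found in them. The windows run from 250 bases before to 50 bases after the start of the gene in RefSeq (GRCm38.p6), 5′ to 3′ on the gene's strand. Capitals mark matches, on either strand, to the GATA motifs AGATAA or else TGATAA or else AGATAG or else TGATAG, and to the ETS motifs AGGAAG or else CGGAAG, and no GATA motif overlapped an ETS motif. The windows are Gp1ba at chr11:70638872-70639171 (+ strand), Gp5 at chr16:30310732-30311031 (- strand), Gp1bb at chr16:18622354-18622653 (- strand), Gp9 at chr6:87777820-87778119 (+ strand), Itga2b at chr11:102469834-102470133 (- strand) and Pf4 at chr5:90772185-90772484 (+ strand).
Gp1ba: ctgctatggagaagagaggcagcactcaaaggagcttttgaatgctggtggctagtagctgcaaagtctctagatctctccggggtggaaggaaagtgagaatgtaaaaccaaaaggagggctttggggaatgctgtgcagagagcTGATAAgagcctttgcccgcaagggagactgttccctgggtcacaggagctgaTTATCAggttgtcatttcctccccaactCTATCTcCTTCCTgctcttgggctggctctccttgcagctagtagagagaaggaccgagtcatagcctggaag
Gp5: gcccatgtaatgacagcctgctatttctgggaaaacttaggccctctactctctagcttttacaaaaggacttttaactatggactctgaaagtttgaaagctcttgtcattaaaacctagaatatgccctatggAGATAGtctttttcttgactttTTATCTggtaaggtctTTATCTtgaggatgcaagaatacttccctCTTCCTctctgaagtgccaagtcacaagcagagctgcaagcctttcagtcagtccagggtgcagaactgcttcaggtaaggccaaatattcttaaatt
Gp1bb: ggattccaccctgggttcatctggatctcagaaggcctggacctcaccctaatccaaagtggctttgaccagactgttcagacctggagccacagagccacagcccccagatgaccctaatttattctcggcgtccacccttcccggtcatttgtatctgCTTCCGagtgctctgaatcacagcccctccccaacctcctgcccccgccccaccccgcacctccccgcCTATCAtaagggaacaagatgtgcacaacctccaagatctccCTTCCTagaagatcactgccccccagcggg
Gp9: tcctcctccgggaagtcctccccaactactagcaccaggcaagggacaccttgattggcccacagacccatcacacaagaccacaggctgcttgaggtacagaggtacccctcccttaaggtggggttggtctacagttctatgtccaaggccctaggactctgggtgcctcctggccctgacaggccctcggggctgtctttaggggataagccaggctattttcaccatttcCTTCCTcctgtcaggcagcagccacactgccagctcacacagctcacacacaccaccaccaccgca
Itga2b: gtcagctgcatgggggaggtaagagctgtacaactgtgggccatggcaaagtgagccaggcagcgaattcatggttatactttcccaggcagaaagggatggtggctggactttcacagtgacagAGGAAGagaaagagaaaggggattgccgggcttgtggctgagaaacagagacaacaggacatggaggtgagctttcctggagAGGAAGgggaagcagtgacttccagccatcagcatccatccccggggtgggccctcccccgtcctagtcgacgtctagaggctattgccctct
Pf4: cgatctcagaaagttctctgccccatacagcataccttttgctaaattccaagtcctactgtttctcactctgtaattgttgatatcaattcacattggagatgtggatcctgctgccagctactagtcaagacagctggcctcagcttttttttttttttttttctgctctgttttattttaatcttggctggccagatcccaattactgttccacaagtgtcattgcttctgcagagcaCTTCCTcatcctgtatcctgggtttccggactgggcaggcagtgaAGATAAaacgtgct

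The windows of Gp1ba and Gp5 held 3 GATA motifs and 1 ETS motif each. Gp1bb held 1 GATA and 2 ETS motifs, Pf4 held 1 of each, Itga2b held 2 ETS motifs and no GATA motif of these letters, and Gp9 held 1 ETS motif and no such GATA motif. A window was found for 27 of the 36 genes, with 28 windows in all. A GATA motif was in 10 of the 28 (35.7%), against 29.8% of all 32817 windows. An ETS motif was in 16 of the 28 (57.1%), against 46.5% of all windows, and both kinds were in 5 (17.9%), against 12.6%. The core motif of NF-E2 and AP-1 (TGAGTCA or else TGACTCA, either strand) was in 1 window (3.57%), against 5.2% of all. These are matches of letters in a window and not evidence of binding.

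Of the 4 genes of the von Willebrand factor receptor, all were lower in the irradiated libraries of both genotypes without overlap. The share of all genes was 25.7% in mutants and 27.8% in wild types. Only Gp1ba passed the test, in mutants. Gp1ba, the subunit that binds von Willebrand factor (chromosome 11, bases 70639122 to 70642036, GRCm38), was at 0.584 and 0.388 CPM in irradiated mutants against 10.3 and 15.4 CPM in unirradiated mutants. It was at 0.811 and 0.795 CPM in irradiated wild types against 10.3 and 6.26 CPM in unirradiated wild types. The irradiated libraries lay within a narrow range close to the level that 3 counts give. Gp1ba fell in mutants, with a log2 fold change of -4.75 ± 0.55 (SE, n = 2 per group; edgeR adjusted p = 0.0215). In wild types the log2 fold change was -3.36 ± 0.51, which did not pass (edgeR adjusted p = 0.0837).

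Gp5, the subunit that thrombin cleaves, was at 3.27 and 1.72 CPM in irradiated mutants against 14.2 and 26.8 CPM in unirradiated mutants. In wild types Gp5 was at 0.361 and 1.06 CPM after irradiation against 14.9 and 22.8 CPM without it. Both irradiated wild type libraries were below both irradiated mutant libraries. The irradiated wild type levels of Gp5 rest on 4 and 12 counts, and the irradiated mutant levels on 28 and 31. Gp5 had a log2 fold change of -3.07 ± 0.59 in mutants (edgeR adjusted p = 0.0742) and -4.71 ± 0.66 in wild types (edgeR adjusted p = 0.0729).

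Gp9, a small subunit needed for the complex to reach the surface, was at 11.8 and 1.33 CPM in irradiated mutants against 15.7 and 28.2 CPM in unirradiated mutants. It was at 8.20 and 6.62 CPM in irradiated wild types against 25.2 and 28.8 CPM in unirradiated wild types. The irradiated mutant replicates stood far apart, 1 of them close to the unirradiated range and the other well below it. For Gp9 the log2 fold change was -1.79 ± 0.82 in mutants (edgeR adjusted p = 0.248) and -1.86 ± 0.81 in wild types (edgeR adjusted p = 0.291).

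Gp1bb, the subunit joined to the Gp1ba product by disulphide bonds, was at 7.01 and 3.65 CPM in irradiated mutants against 16.7 and 33.6 CPM in unirradiated mutants. It was at 6.04 and 6.89 CPM in irradiated wild types against 22.5 and 30.8 CPM in unirradiated wild types. The groups did not overlap in either genotype. Gp1bb had a log2 fold change of -2.26 ± 0.48 in mutants and -2.04 ± 0.47 in wild types (edgeR adjusted p = 0.0855 and 0.143). Counts of Gp1bb are uncertain, because 92.9% of its exonic bases are shared with Sept5 and Gm49601 on the same strand.

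Gp6, the collagen receptor that signals through the Fc receptor gamma chain, was at 1.64 and 0.996 CPM in irradiated mutants against 9.81 and 13.8 CPM in unirradiated mutants. In wild types Gp6 was at 1.35 and 1.24 CPM after irradiation against 10.2 and 10.9 CPM without it. The 4 irradiated libraries were close together and far below the others. Gp6 (chromosome 7, bases 4363965 to 4397744) fell in mutants, with a log2 fold change of -3.19 ± 0.45 (edgeR adjusted p = 0.0344), and its log2 fold change in wild types was -3.02 ± 0.45 (edgeR adjusted p = 0.0760).

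Clec1b, which encodes the podoplanin receptor CLEC-2, was at 26.7 and 17.6 CPM in irradiated mutants against 28.2 and 34.3 CPM in unirradiated mutants. It was at 12.1 and 16.1 CPM in irradiated wild types against 24.8 and 27.8 CPM in unirradiated wild types. Its log2 fold change of -0.50 ± 0.32 in mutants and -0.90 ± 0.32 in wild types did not pass the test (edgeR adjusted p = 0.383 and 0.236). An irradiated mutant library was above an unirradiated wild type library, so Clec1b was 1 of the 12 genes whose 4 irradiated libraries overlapped the unirradiated ones.

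The integrin of Itga2b and Itgb3 binds fibrinogen and links platelets to each other. Itga2b was at 31.7 and 13.4 CPM in irradiated mutants against 56.1 and 114 CPM in unirradiated mutants. In wild types Itga2b was at 24.6 and 21.4 CPM after irradiation against 71.7 and 95.6 CPM without it. All irradiated libraries were below all unirradiated ones for both subunit genes. For Itga2b the log2 fold change was -1.92 ± 0.50 in mutants and -1.86 ± 0.49 in wild types (edgeR adjusted p = 0.107 and 0.169). That of Itgb3 was -2.05 ± 0.45 in mutants and -1.68 ± 0.44 in wild types (edgeR adjusted p = 0.0900 and 0.169).

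Among 6 other receptors and channels, Treml1 and F2rl2 fell in mutants. Treml1, a receptor stored in alpha granules (chromosome 17, bases 48359916 to 48367176), was at 1.52 and 0.554 CPM in irradiated mutants against 12.6 and 25.8 CPM in unirradiated mutants. It was at 1.89 and 1.94 CPM in irradiated wild types against 16.2 and 20.0 CPM in unirradiated wild types. The groups were well separated in both genotypes. Its log2 fold change was -4.29 ± 0.60 in mutants (edgeR adjusted p = 0.0344) and -3.23 ± 0.56 in wild types (edgeR adjusted p = 0.110).

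F2rl2, which encodes the thrombin receptor PAR3 used by mouse platelets (chromosome 13, bases 95696853 to 95702739), was at 3.04 and 4.10 CPM in irradiated mutants against 16.0 and 23.6 CPM in unirradiated mutants. In wild types F2rl2 was at 2.52 and 3.89 CPM after irradiation against 17.7 and 16.4 CPM without it. The irradiated libraries of both genotypes fell in the same range, far below the rest. The log2 fold change was -2.46 ± 0.40 in mutants (edgeR adjusted p = 0.0474) and -2.41 ± 0.40 in wild types (edgeR adjusted p = 0.0958).

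P2rx1, an ATP-gated channel, and Trpc6, a calcium-permeable channel, were also lower in all 4 irradiated libraries without passing the test. Trpc6 was at 0.234 and 0.941 CPM in irradiated mutants and 0.270 and 0.177 CPM in irradiated wild types. Irradiated mutant replicate 2 had 17 counts of Trpc6, and the other 3 irradiated libraries had 2 or 3. The ADP receptor gene P2ry12 overlapped between irradiated and unirradiated mutants, and its direction in mutants changed when libraries were scaled by raw totals. In wild types P2ry12 was at 4.51 and 7.86 CPM after irradiation against 11.0 and 11.4 CPM without it. Cd9, a tetraspanin also made by many other cells, overlapped between irradiated and unirradiated libraries in both genotypes.

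**Figure D2:**
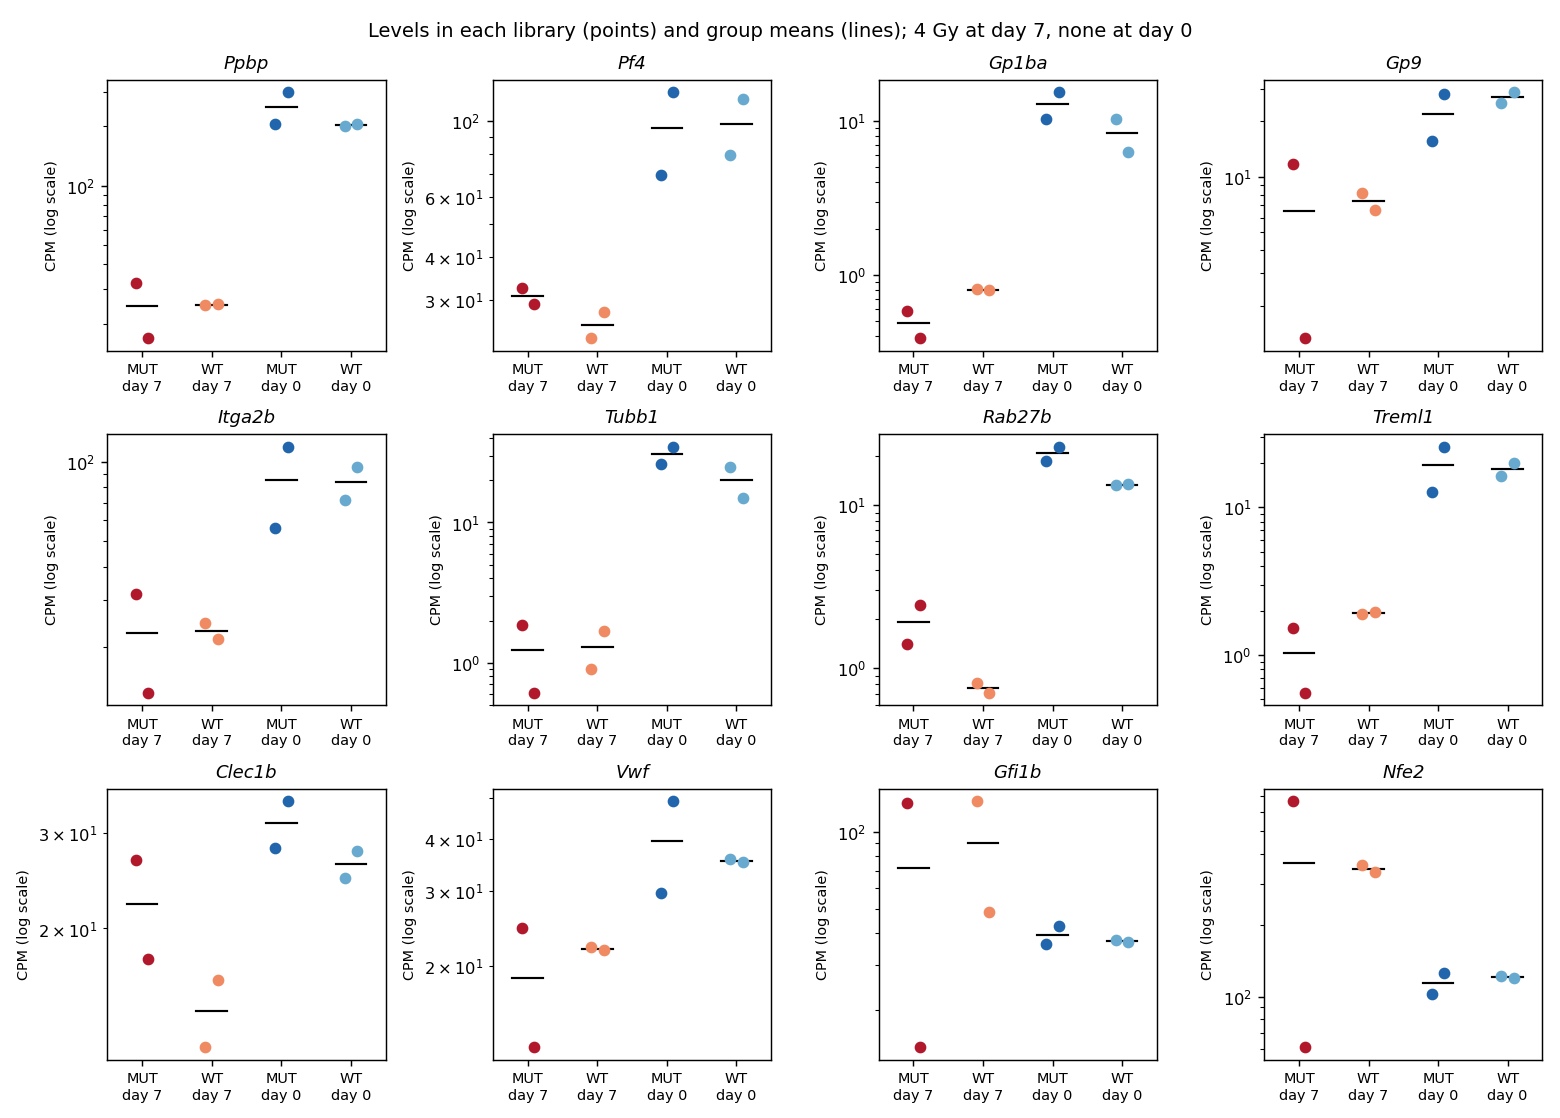
CPM on a log axis for 12 of the genes in each library (points) with group means (lines), for irradiated mutants and wild types (MUT and WT, day 7) and unirradiated mutants and wild types (day 0), 2 libraries a group. Ppbp, Gp1ba, Tubb1, Rab27b and Treml1 are far lower in all 4 day 7 libraries, whereas Nfe2 and Gfi1b are higher in 3 of those 4 libraries and lower in 1 irradiated mutant.

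Granule cargo was lower without overlap for all 9 genes of that role in each genotype (all genes: 25.7% in mutants and 27.8% in wild types). Of these genes, Ppbp passed the test in mutants. Ppbp encodes the precursor of the chemokine CXCL7 and had the highest level per exon length of the 36 genes in unirradiated spleen. It was at 32.2 and 16.8 CPM in irradiated mutants against 206 and 299 CPM in unirradiated mutants. In wild types it was at 24.9 and 25.1 CPM after irradiation against 201 and 207 CPM without it. The irradiated libraries were all far below the unirradiated ones. Ppbp fell in mutants, with a log2 fold change of -3.37 ± 0.41 (edgeR adjusted p = 0.0270), and its log2 fold change in wild types was -3.03 ± 0.41 (edgeR adjusted p = 0.0729).

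Pf4, the chemokine platelet factor 4, lies next to Ppbp on chromosome 5. Ppbp spans bases 90768518 to 90770063 and Pf4 spans 90772435 to 90773383 (GRCm38), with 2371 bases and 0 coding genes between them. Pf4 was at 32.5 and 29.2 CPM in irradiated mutants against 69.5 and 121 CPM in unirradiated mutants. It was at 23.2 and 27.6 CPM in irradiated wild types against 79.6 and 116 CPM in unirradiated wild types. The groups did not overlap, with a smaller gap than for Ppbp. Pf4 had a log2 fold change of -1.63 ± 0.36 in mutants and -1.94 ± 0.36 in wild types (edgeR adjusted p = 0.0901 and 0.119), and the difference between the fold changes of the neighbours was not tested.

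Vwf, the adhesive protein that endothelial cells also make, was at 24.5 and 12.8 CPM in irradiated mutants against 29.7 and 49.2 CPM in unirradiated mutants. In wild types Vwf was at 22.2 and 21.7 CPM after irradiation against 35.8 and 35.2 CPM without it. Vwf was lower without overlap, with a log2 fold change of -1.09 ± 0.39 in mutants and -0.69 ± 0.39 in wild types (edgeR adjusted p = 0.170 and 0.373). The 15 endothelial markers summed to 483 to 835 CPM in irradiated libraries and 491 to 610 CPM in unirradiated ones. Their median log2 fold change was 0.84 in mutants, with 12 of 15 higher without overlap (all genes: 26.9%). In wild types it was 0.70, with 7 of 15 higher and 0 lower without overlap (all genes: 29.7% and 27.8%). The part of these markers in the levels of Vwf was not tested.

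Selp, which encodes P-selectin and is shared with endothelium, was at 0.234 and 2.10 CPM in irradiated mutants against 4.06 and 6.33 CPM in unirradiated mutants. It was at 0 and 0.353 CPM in irradiated wild types against 2.64 and 2.21 CPM in unirradiated wild types. The irradiated wild type level rests on 0 and 4 counts, so no fold is given. Selp also shares 14.1% of its exonic bases with genes on the other strand.

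The secreted proteins Mmrn1, F5 and F13a1 were lower by more than 1 log2 unit in both genotypes, and their irradiated and unirradiated libraries did not overlap. Mmrn1 encodes multimerin, which binds factor V, and had a log2 fold change of -3.89 ± 0.81 in mutants and -2.55 ± 0.76 in wild types. F5, factor V itself, had a log2 fold change of -2.67 ± 0.48 in mutants and -1.79 ± 0.47 in wild types. For F13a1, the A subunit of the clot-crosslinking factor XIII, it was -2.56 ± 0.54 in mutants and -3.05 ± 0.57 in wild types. None of the 3 passed the test in either genotype (smallest edgeR adjusted p = 0.0669, for F5 in mutants). Thbs1, which encodes the adhesive protein thrombospondin 1, had a log2 fold change of -1.05 ± 0.43 in mutants and -1.30 ± 0.43 in wild types. Angpt1, which encodes the vessel growth factor angiopoietin 1, had -0.86 ± 0.42 in mutants and -0.67 ± 0.43 in wild types.

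Rab27b, a small GTPase for the transport of dense granules, was the gene that passed the test in both genotypes. It was at 1.40 and 2.44 CPM in irradiated mutants against 18.7 and 22.8 CPM in unirradiated mutants. It was at 0.811 and 0.706 CPM in irradiated wild types against 13.2 and 13.5 CPM in unirradiated wild types. The groups were separated by a wide gap. The log2 fold change was -3.40 ± 0.41 in mutants (edgeR adjusted p = 0.0270) and -4.13 ± 0.44 in wild types (edgeR adjusted p = 0.0327). The wild type call was lost with raw library totals and with limma-voom. Slc35d3, needed for dense granules in mice, was at 0.234 and 3.76 CPM in irradiated mutants against 3.93 and 6.79 CPM in unirradiated mutants.

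Tubb1, the beta tubulin of the platelet marginal band (chromosome 2, bases 174450695 to 174457882), was at 1.87 and 0.609 CPM in irradiated mutants against 26.3 and 34.8 CPM in unirradiated mutants. In wild types Tubb1 was at 0.901 and 1.68 CPM after irradiation against 25.0 and 14.99 CPM without it. All irradiated libraries were far below all unirradiated ones. Tubb1 fell in mutants, with a log2 fold change of -4.71 ± 0.62 (edgeR adjusted p = 0.0296), and its log2 fold change in wild types was -3.95 ± 0.60 (edgeR adjusted p = 0.0861). Plek, which encodes the protein kinase C substrate pleckstrin, and Bin2, an adaptor for membrane curvature, were lower in all 4 irradiated libraries, with log2 fold changes between -1.74 and -1.27. Gng11, a G protein gamma subunit, was at 26.7 and 27.7 CPM in irradiated mutants against 17.9 and 17.4 CPM in unirradiated mutants, and its wild type libraries overlapped. Nrgn, a calmodulin-binding protein, overlapped between irradiated and unirradiated libraries in both genotypes.

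Of 3 eicosanoid enzymes, Alox12 fell in mutants. Alox12, the platelet 12-lipoxygenase (chromosome 11, bases 70241457 to 70255353), was at 10.7 and 8.64 CPM in irradiated mutants against 31.2 and 50.6 CPM in unirradiated mutants. In wild types it was at 9.64 and 7.59 CPM after irradiation against 37.1 and 38.3 CPM without it. Irradiated libraries were clearly below the others, with a log2 fold change of -2.08 ± 0.34 in mutants (edgeR adjusted p = 0.0494) and -2.13 ± 0.34 in wild types (edgeR adjusted p = 0.0907). Ptgs1, which encodes cyclooxygenase 1, and Tbxas1, thromboxane synthase, are both also made by macrophages. Ptgs1 had a log2 fold change of 0.70 ± 0.28 in mutants and -0.12 ± 0.29 in wild types, and neither value passed the test. Tbxas1 had 0.37 ± 0.40 in mutants, a direction that changed with raw totals, and 0.39 ± 0.41 in wild types.

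None of the 3 transcription factor genes passed the test, and each had irradiated mutant replicates on both sides of the unirradiated mutants. Nfe2, the large subunit of NF-E2, which drives late megakaryocyte genes and erythroid genes, was at 670 and 61.0 CPM in irradiated mutants against 102 and 125 CPM in unirradiated mutants. In wild types it was at 358 and 336 CPM after irradiation against 122 and 119 CPM without it. The 2 irradiated mutants lay on opposite sides of the unirradiated range, while both irradiated wild types were above it. The log2 fold change was 1.68 ± 0.87 in mutants and 1.52 ± 0.86 in wild types (edgeR adjusted p = 0.291 and 0.380). Without replicate 1 of irradiated mutants the mutant value was -0.95 (adjusted p = 0.0824), and without replicate 2 it was 2.41 (adjusted p = 8.96e-04). Over the 16 alternatives run for Nfe2 in mutants, the adjusted p ranged between 8.96e-04 and 0.683.

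Gfi1b, a repressor needed for both megakaryocytes and red cells, was at 129 and 14.3 CPM in irradiated mutants against 36.2 and 42.7 CPM in unirradiated mutants. In wild types it was at 132 and 48.4 CPM after irradiation against 37.7 and 36.9 CPM without it. Fli1, an ETS factor also used by endothelium and lymphocytes, was at 22.9 and 71.1 CPM in irradiated mutants against 64.8 and 58.9 CPM in unirradiated mutants. For both genes the irradiated mutants again fell on both sides of the unirradiated mutants, and the higher Fli1 value was inside the range of all unirradiated libraries. Without replicate 1 of irradiated mutants the log2 fold change in mutants was -1.51 for Gfi1b and 0.15 for Fli1. Without replicate 2 it was 1.56 for Gfi1b (adjusted p = 0.0362) and -1.58 for Fli1 (adjusted p = 0.0224). The adjusted p over 16 alternatives in mutants ranged between 0.0362 and 0.995 for Gfi1b and between 0.0224 and 0.875 for Fli1.

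The 2 irradiated mutant libraries also differed in markers of other cell types. The 14 erythroid markers in the table summed to 171976 CPM in replicate 1 and 14214 CPM in replicate 2 of irradiated mutants, against 20689 to 46224 CPM in unirradiated libraries. In irradiated wild types, where Nfe2 was above the unirradiated range in both libraries, they summed to 65493 and 75867 CPM. The 9 B cell markers summed to 81.9 and 1136 CPM in those replicates, against 2237 to 4446 CPM in unirradiated libraries. The 14 macrophage and monocyte markers summed to 2403 and 4108 CPM there, against 2351 to 3168 CPM in unirradiated libraries. The 8 adipose markers summed to 94.0 and 1026 CPM in replicates 1 and 2 of irradiated mutants, against 27.0 to 156 CPM in unirradiated libraries. Granulocyte markers summed to 92.7 to 260 CPM in irradiated libraries and 1446 to 11425 CPM in unirradiated ones. Their part in the levels of the 36 genes was not tested.

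**Figure D3:**
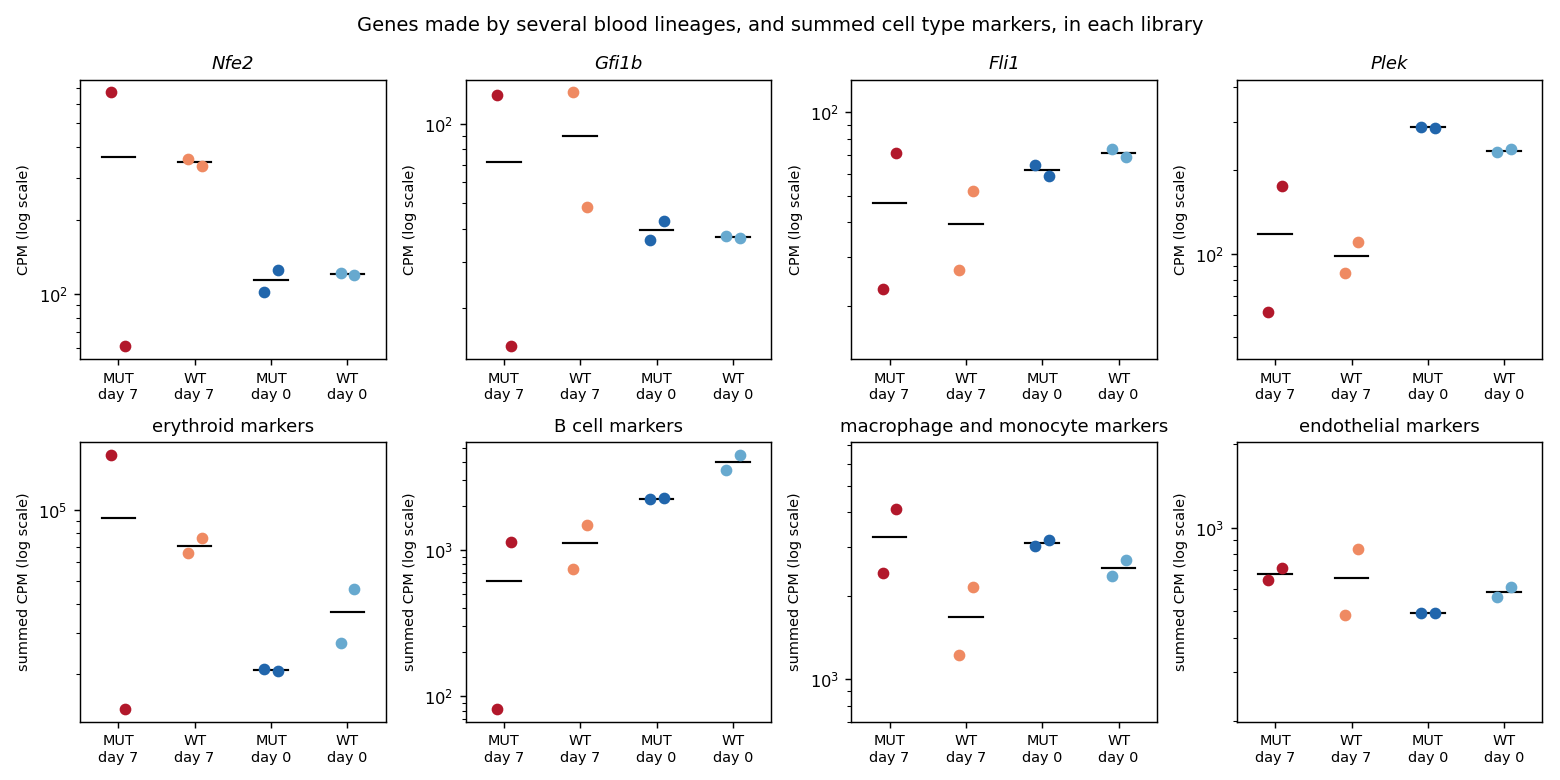
CPM of Nfe2, Gfi1b, Fli1 and Plek (top) and summed CPM of 4 marker lists (bottom) on log axes, in each library (points) with group means (lines), irradiated groups left of unirradiated ones. The irradiated mutant library at 670 CPM of Nfe2 is the one with 171976 CPM of erythroid markers and 81.9 CPM of B cell markers.

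The irradiation responses of the 36 genes were then set side by side in the genotypes. The signs of the log2 fold changes were the same in both genotypes for 32 genes, of which 29 were below 0 and 3 above, and 4 had opposite signs. Across the 36 genes the log2 fold changes in mutants and wild types correlated (Pearson r = 0.899, Spearman rho = 0.929), as a description across genes that are not independent, from comparisons that share no library but come from 1 fit. The difference between the irradiation effects, mutant minus wild type, was tested as an interaction, and 0 of the 36 were called by edgeR, by DESeq2 or by limma-voom. The share of all genes called was 0% by edgeR and limma-voom and 0.0231% by DESeq2. By edgeR, 0 of the 36 were under an unadjusted p of 0.05 (all genes: 1.6%). The median interaction was 0.06, beside 0.05 over all genes. The smallest p-values were those of Ptgs1, with an interaction of 0.82 ± 0.40, Gp5, with 1.64 ± 0.84, and Gp1ba, with -1.39 ± 0.71, and each had an edgeR adjusted p of 1.

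**Figure D4:**
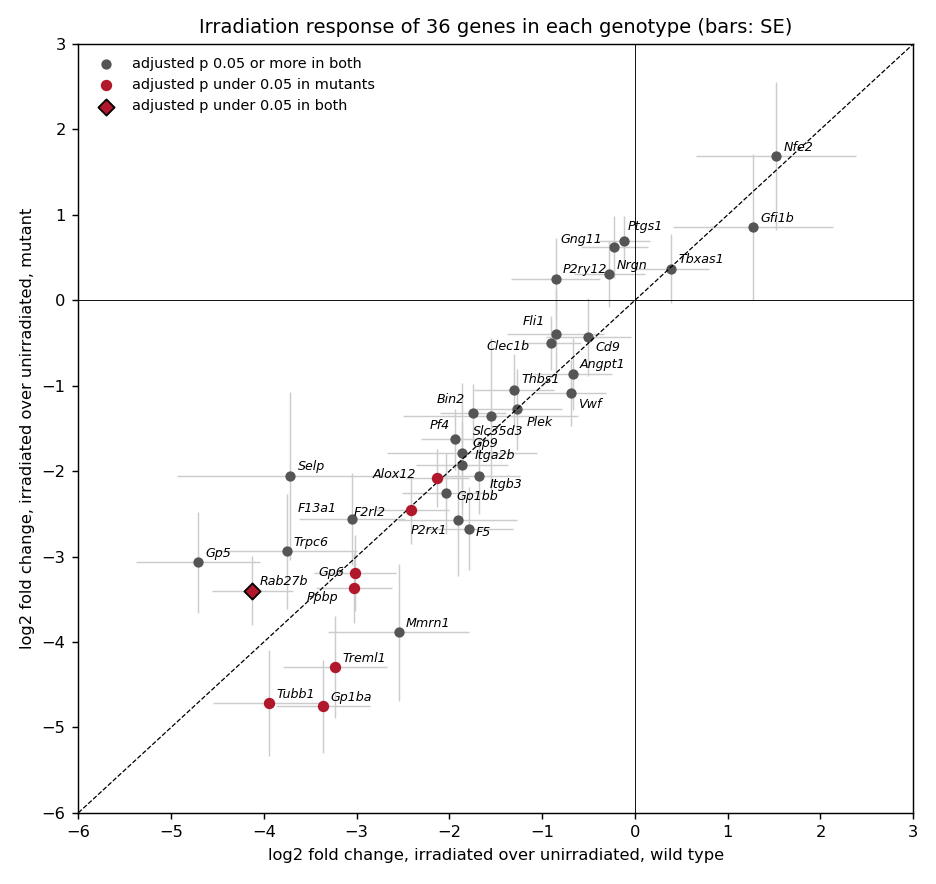
Log2 fold change of the 36 genes, irradiated over unirradiated, in mutants (vertical) against wild types (horizontal), with SE bars and a dashed line of equality. Filled red points passed the test in mutants and the outlined diamond, Rab27b, in both; 29 genes lie below 0 in both genotypes.

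Per kilobase of exon, where levels can be compared between genes, Ppbp was highest in unirradiated spleen, at 233 CPM per kb in mutants and 188 CPM per kb in wild types. Trpc6 was lowest in unirradiated mutants at 0.969 CPM per kb, and Selp in unirradiated wild types at 0.550 CPM per kb. At day 7 Nfe2 was highest, at 122 CPM per kb in irradiated mutants and 116 CPM per kb in irradiated wild types, although its irradiated mutant replicates stood far apart.

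**Figure D5:**
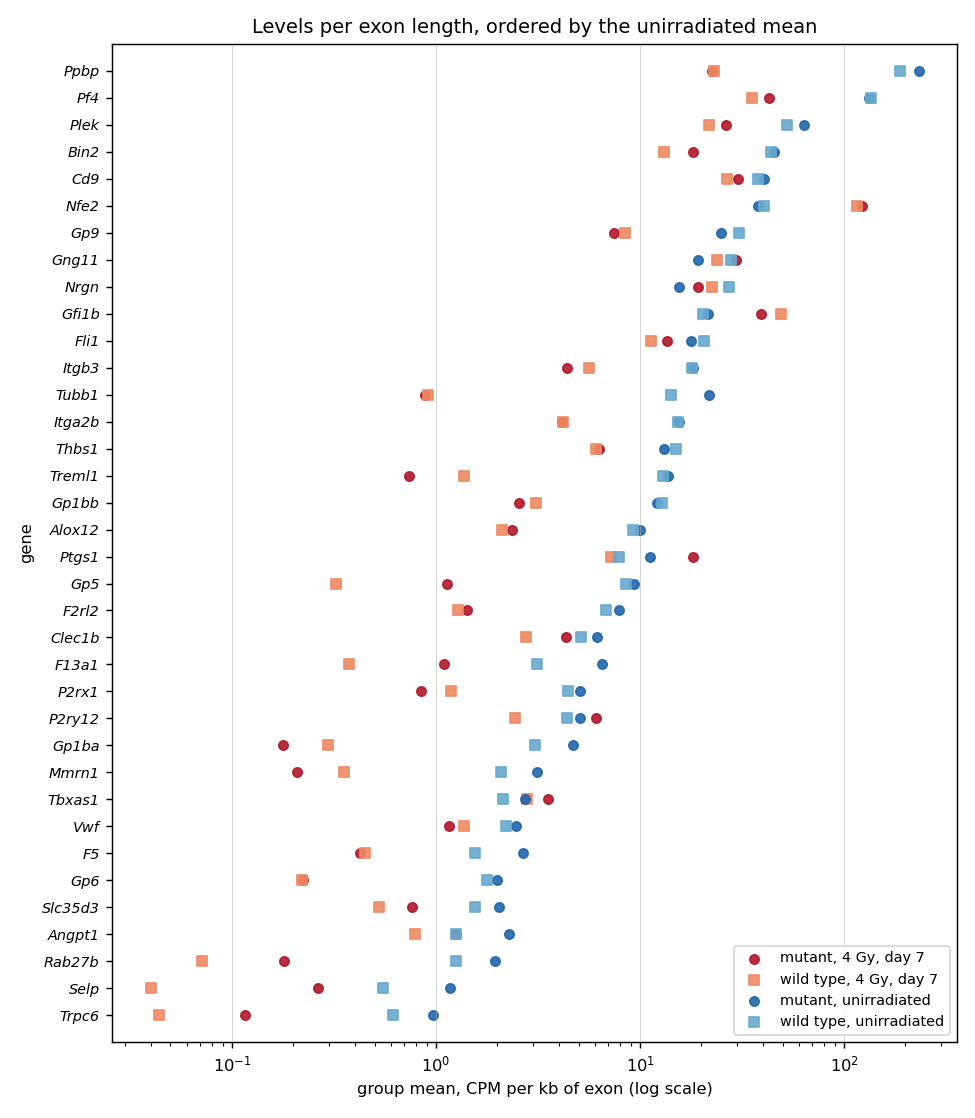
Group means of the 36 genes in CPM per kb of exon on a log axis, ordered by the unirradiated mean, for irradiated and unirradiated mutants and wild types (2 libraries each). Ppbp leads without irradiation at 233 and 188 CPM per kb, and Nfe2 leads at day 7 at 122 and 116 CPM per kb.

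Outside the 36 genes, 58 others in 4 lists of megakaryocyte and platelet genes were tested, and 0 were called in any contrast by edgeR. The share of all genes called was 0.6% after irradiation in mutants, 0.0577% in wild types and 0% in the other contrasts. At such shares, 0 calls among 58 genes do not set these genes apart from the rest. Without adjustment, 16 of the 58 were lower and 5 higher after irradiation in mutants, and 17 lower and 3 higher in wild types, beside the shares of all genes given above. Their median log2 fold change was -0.32 in mutants and -0.36 in wild types. The 12 regulators of the lineage had medians of 0.57 in mutants and 0.65 in wild types, with 9 of 12 above 0 in each. The 20 genes for platelet activation had -0.33 in mutants and -0.51 in wild types, the 16 for granule formation and release had -0.75 in mutants and -0.66 in wild types, and the 10 for the proplatelet cytoskeleton had -0.36 in mutants and -0.37 in wild types. Mpig6b, an inhibitory receptor of the lineage, was at 1.05 and 0.664 CPM in irradiated mutants against 6.94 and 10.4 CPM in unirradiated mutants (-3.36 ± 0.63, edgeR adjusted p = 0.0713). Vps33b, needed for alpha granules, was at 10.2 and 9.30 CPM in irradiated mutants against 24.9 and 22.3 CPM in unirradiated mutants (-1.28 ± 0.27, edgeR adjusted p = 0.0881).

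Between genotypes without irradiation, 0 of the 36 genes were called by edgeR, where the background was 0% in both directions, and 0 were under an unadjusted p of 0.05 (all genes: 2.24%). DESeq2 and limma-voom also called 0 (all genes: 0.346% and 0%), and limma-voom with library weights called 1 (all genes: 2.28%). The median log2 fold change, mutant over wild type, was 0.17, beside -0.02 over all genes. The libraries did not overlap for 12 genes that were higher and 3 that were lower in mutants (all genes: 20.8% and 25%). F13a1 was at 38.6 and 49.7 CPM in unirradiated mutants against 24.8 and 17.4 CPM in unirradiated wild types. Both mutants were above both wild types, and the log2 fold change was 1.06 ± 0.51 (edgeR adjusted p = 1). F13a1 passed in a fit of the 4 unirradiated libraries (1.08, edgeR adjusted p = 0.0228), where 2.81% of all genes were called. F13a1 was also the gene called with library weights. Its adjusted p over 16 alternatives ranged between 0.0228 and 1. The 10 granulocyte markers summed to 5920 and 11425 CPM in unirradiated mutants against 1697 and 1446 CPM in unirradiated wild types, and all 10 were higher in mutants without overlap. The 14 macrophage and monocyte markers summed to 3032 and 3168 CPM in unirradiated mutants against 2351 and 2679 CPM in unirradiated wild types. Among them the monocyte gene Ly6c2 was at 291 and 413 CPM in unirradiated mutants against 121 and 162 CPM in unirradiated wild types. The part of these markers in the level of F13a1 was not tested.

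Nrgn was lower in unirradiated mutants, at 15.7 and 29.5 CPM against 29.9 and 49.9 CPM in unirradiated wild types. Angpt1 was at 11.8 and 11.8 CPM in unirradiated mutants against 6.73 and 6.32 CPM in unirradiated wild types. Neither gene overlapped between the groups, with log2 fold changes of -0.82 ± 0.39 for Nrgn and 0.86 ± 0.42 for Angpt1 (edgeR adjusted p = 1 for both). Angpt1 shares 14.2% of its exonic bases with a gene on the other strand. In unirradiated mutants 31 of the 36 genes were higher in replicate 2 than in replicate 1, against 51.6% of all genes, and without replicate 2 the median genotype difference was -0.06.

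At 7 days after irradiation, 0 of the 36 genes were called between genotypes by edgeR, with a background of 0% in both directions, and 5 were under an unadjusted p of 0.05, all higher in mutants (all genes: 3.36% higher and 0.652% lower). DESeq2 called 1 (all genes: 0.421%), and limma-voom, with or without library weights, called 0 (all genes: 0%). The median log2 fold change was 0.16, beside 0.02 over all genes. The libraries did not overlap for 8 genes that were higher and 3 that were lower in mutants (all genes: 10.4% and 7.46%). Ptgs1 was at 73.9 and 67.1 CPM in irradiated mutants against 22.4 and 33.8 CPM in irradiated wild types. Both mutants were above both wild types, with a log2 fold change of 1.33 ± 0.29 (edgeR adjusted p = 0.925), and Ptgs1 was the gene that DESeq2 called (adjusted p = 0.0184, the lowest over 16 alternatives, where the highest was 1).

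Rab27b was at 1.40 and 2.44 CPM in irradiated mutants against 0.811 and 0.706 CPM in irradiated wild types. These low levels of Rab27b rest on 12 and 44 counts in irradiated mutants and on 9 and 8 in irradiated wild types. F13a1 was at 3.74 and 11.0 CPM in irradiated mutants against 1.80 and 3.27 CPM in irradiated wild types. Neither overlapped, with log2 fold changes of 1.36 ± 0.44 for Rab27b and 1.55 ± 0.55 for F13a1, which did not pass (edgeR adjusted p = 1 for both). Macrophage and monocyte markers summed to 2403 and 4108 CPM in irradiated mutants against 1218 and 2139 CPM in irradiated wild types, and all 14 had a log2 fold change above 0. Their part in these differences was not tested. Without replicate 1 of irradiated mutants 5 of the 36 genes were called, where 2.57% of all genes were: Gfi1b (-2.61), Gp9 (-2.43) and Nfe2 (-2.47) lower, and P2ry12 (1.84) and F13a1 (2.15) higher.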

How the data were processed

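Spleens of mice were profiled by mRNA sequencing, with RNA taken by Trizol and libraries from an mRNA kit, per the labels' protocols. The deposited table held whole-number counts per gene made by the authors, 1 column per library. The submitters' processing notes name featureCounts, Subread and Trim Galore as tools, and mm10 among the builds. Versions, strand setting and handling of reads with several matches were not given in those sources, so overlapping and antisense genes cannot be told apart. Of 52636 identifiers, 52489 matched GENCODE M21 (GRCm38) without their version, and 0 lines named no gene. The edgeR filter filterByExpr, with a minimum count of 10 and a minimum total of 15, left 17327 genes. Groups and replicate numbers came from sample titles.

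Counts were scaled by TMM and tested by quasi-likelihood F tests in edgeR 4.0.16 under R 4.3.3. The 8 libraries were fitted together, group by group (4 residual degrees of freedom), with Benjamini-Hochberg adjustment over all genes and a threshold of 0.05. SEs are the absolute log2 fold change over the square root of F. The edgeR fit was tested on simulated data with falls placed in irradiated mutants only and the same spread in every group. The check was of the median log2 fold changes recovered and not of the number of calls. Alternatives were other scalings, no filter, DESeq2 1.42.0, limma-voom (limma 3.58.1) with and without library weights, a replicate block, fits of 4 libraries, and leaving out each library. Depth was 12100784 to 19455470 counts per library. Levels per kb used the union of exons.

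The 36 genes, the lists and the rule for naming genes were chosen with earlier results of these data known. The rule gave values in every library for 12 fixed genes, for genes that passed the test and for the 3 smallest p per contrast. From other lists it named genes called and the 2 smallest p per contrast, of which 1 is not reported here. The values of P2ry12, Trpc6, Slc35d3 and Gng11, the fold changes of Itgb3, Mmrn1, F5, Thbs1, Plek, Bin2 and Tbxas1, and Xist, Ddx3y, Alb and Ly6c2 were added after these values had been seen. Promoter windows and motif letters came from RefSeq (GRCm38.p6).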

Additional observations from a re-analysis of the deposited data

How the results depend on the processing

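The median log2 fold change of the 36 genes after irradiation kept its direction under every alternative run. With raw library totals it was -2.29 in mutants and -2.17 in wild types, where the median of all genes was -0.25 in both, and leaving out 1 library gave -2.26 to -1.34 in mutants and -1.94 to -1.63 in wild types. The number of calls after irradiation was not stable. The share of all genes called, in brackets, also moved. The number of calls in mutants was 25 without the low-count filter (7.27%), 19 with DESeq2 (11.3%), 5 with limma-voom (0.606%), 1 with library weights (0.693%), 0 in a fit of the 4 libraries (0%) and 0 to 26 without 1 library. In wild types it was 24 without the filter (5.35%), 20 with DESeq2 (6.7%), 0 with limma-voom (0.0289%), 10 with library weights (3.45%), 20 in a fit of the 4 libraries (6.96%) and 0 to 25 without 1 library. The cause was not tested. Between genotypes without irradiation there was 1 call with library weights (2.28%) and 1 in a fit of 4 libraries (2.81%). Leaving out 1 library gave medians of -0.058 to 0.43 there, the lowest without mutant replicate 2. At day 7 there was 1 call with DESeq2 (0.421%), and leaving out 1 library gave medians of 0.055 to 0.49. The median interaction, 0.06, was -0.025 with raw totals, -0.022 without the filter, -0.073 with limma-voom, -0.077 with library weights, and -0.11 to 0.39 without 1 library, with -0.0097 when WT replicate 2 of day 0 was left out and -0.094 when mutant replicate 2 of day 7 was. In mutants, Gfi1b after irradiation was -0.014 with library weights. Leaving out 1 library gave -1.51 to 1.56 for Gfi1b, -0.95 to 2.41 for Nfe2 and -1.58 to 0.15 for Fli1, with the reversed sign without irradiated mutant replicate 1.

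No label says that equal replicate numbers belong together, and deviations from group means of libraries with equal numbers correlated at 0.035 to 0.465 over pairs of groups. With the replicate block the counts of calls were 9 in mutants and 1 in wild types after irradiation (all genes: 1.46% and 0.0923%) and 0 elsewhere, and the median interaction was -0.055. With 2 libraries a group, low levels such as those of Selp and Trpc6 after irradiation are limited by counting error.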
